A study of Mus musculus with 7 samples.

Results

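Transcripts of the transforming growth factor beta (TGF-beta) ligands, their receptors and the latent TGF-beta binding proteins were examined in sorted mouse bone marrow cells. Members were all probe sets of the array whose single gene symbol in the platform annotation was Tgfb1, Tgfb2, Tgfb3, Tgfbr1, Tgfbr2, Tgfbr3, Ltbp1, Ltbp2, Ltbp3 or Ltbp4. The rule gave 24 probe sets of 10 genes, out of 45037 probe sets that are not controls. They make 10 of the 18193 genes that the array measures under a single symbol. Amplified RNA of 1800 to 10000 cells per sample was hybridised to Affymetrix Mouse GE 430 2.0 arrays, 1 sample per array and 7 in all. The mice were wild-type, of the C57Bl/6J strain, and 6 to 12 weeks old. Their marrow cells were sorted as negative for lineage antigens and for CD45, the common leukocyte antigen. The CD54+CD31-BP1+ population, labelled stromal, was measured on 4 arrays (stromal 1 to 4). The CD54-CD31+ population, labelled endothelial, was measured on 3 arrays (CD31+ 1 to 3). Nothing in the labels says whether replicates were separate mice or separate sorts, and the p-values cover no more than the spread among the arrays, which may be technical.

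TGF-beta is secreted in a latent form, in which the mature dimer stays bound to its own propeptide. Latent TGF-beta binding proteins (LTBPs) tether most of these complexes to the extracellular matrix, from which integrins, thrombospondin and proteases can release the active ligand. The ligand binds the type II receptor kinase, which phosphorylates the type I kinase, and the type I kinase phosphorylates Smad2 and Smad3. In bone marrow, TGF-beta 1 is known as a brake on the cycling of haematopoietic stem cells, and platelets carry large stores of it.

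The marker genes followed the CD54, BP1 and CD31 gates and went only in part with the endothelial label. The genes of BP1 (Enpep) and CD54 (Icam1) were higher on the stromal arrays, at log2 levels of 12.00 ± 0.19 and 10.50 ± 0.35 (SD, n = 4), against 5.08 ± 0.74 and 5.31 ± 0.49 on the CD31+ arrays (n = 3). The CD31 gene Pecam1 was at 4.93 ± 0.21 on the stromal arrays and 8.41 ± 0.64 on the CD31+ arrays. The mean of 8 endothelial markers was 4.94 to 5.29 on the stromal arrays and 6.29 to 6.43 on the CD31+ arrays. Of the 8, 3 were called higher on the CD31+ arrays, among them Plvap (5.28 on the stromal and 8.86 on the CD31+ arrays) and Kdr (6.63 on the stromal and 8.71 on the CD31+ arrays). The third was Tie1, which with Cdh5, Emcn and Tek made 4 of the 8 that averaged below the 40th percentile in both populations. On the CD31+ arrays those 4 averaged 4.14 to 5.39, against a 40th percentile of 5.68 to 5.79. The mean of 8 megakaryocyte and platelet markers was 5.68 to 8.54 on the stromal arrays and 13.49 to 13.85 on the CD31+ arrays. The mean of 6 leukocyte markers was 5.55 to 7.93 on the stromal arrays and 11.42 to 12.15 on the CD31+ arrays, and the CD45 gene Ptprc averaged 6.45 on the stromal and 9.64 on the CD31+ arrays. Since markers of several cell types were raised on the CD31+ arrays, that population is called by its gate. Reticular stroma markers went with the stromal label, with a mean of 8 genes of 13.24 to 13.42 on the stromal and 5.46 to 6.48 on the CD31+ arrays. Among the stromal arrays, stromal 4 had the highest mean of these platelet markers, 8.54, with Ppbp at 10.19 against 3.75 to 4.30 on stromal 1 to 3. Pf4 was raised on stromal 1 as well, at 9.70 and 9.73 on stromal 1 and 4 against 6.58 and 6.61 on stromal 2 and 3. Hybridisation controls, which report spiked-in label, averaged 11.33 and 11.37 on CD31+ 2 and 3 and 9.51 to 9.75 on the other 5 arrays. A block for that split, or those 5 arrays alone, compares CD31+ 1 by itself with the stromal arrays.

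Values below are the deposited log2 levels, and differences are stromal minus CD31+ from limma, with p-values adjusted over all 45037 probe sets. A probe set was called where its adjusted p was below 0.05 and its difference was 1 or more in size, which is a doubling of signal. Of the 24 probe sets 11 were called higher on the stromal arrays and 5 higher on the CD31+ arrays, and 8 were called neither way. Of all probe sets 29.6% were called, 17.3% higher on the stromal and 12.3% higher on the CD31+ arrays. The median difference of the members was 0.87, and that of all probe sets was -0.31. A second quantile normalization, cyclic loess and centring on ribosomal protein genes moved the median of all probe sets to -0.18, -0.03 and -0.02. A difference as deposited is therefore 0.31 higher when taken relative to the median probe set. The stromal share of all calls was 58.5% as deposited, 51.6% and 60.2% after the quantile and loess steps, and 79.2% with ribosomal centring. With that centring limma's adjusted p-values mostly followed the size of the difference and not the spread of the probe set. Tgfbr1 1420893_a_at went from 0.00592 as deposited to 0.548 at -0.48, and Tgfbr3 1433795_at from 5.76e-05 to 1.47e-39 at 6.36. Groups did not overlap in 18 of the 24 probe sets, against 60.7% of all probe sets. Signal above the 40th percentile of the array, on 3 arrays or more, was seen in 20 of the 24. In the other 4, all of them receptor probe sets, both group means lay below that percentile.

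**Figure D1:**
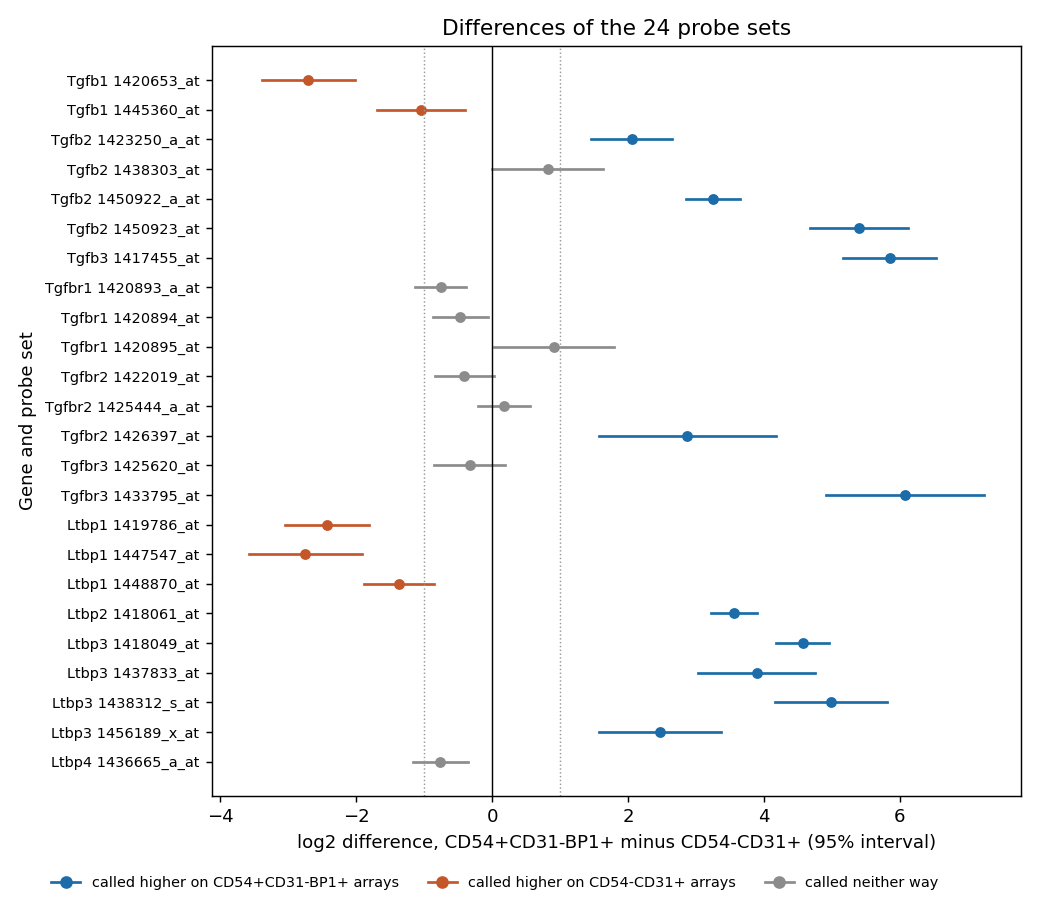
Log2 difference, stromal (CD54+CD31-BP1+) minus CD31+ (CD54-CD31+), of the 24 probe sets, with the 95% interval of limma and dotted lines at the required difference of 1. Tgfb1 and Ltbp1 lie on the negative side in each of their probe sets, while Tgfb3, Ltbp2, Ltbp3 and all 4 Tgfb2 probe sets lie on the positive side.

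The 3 ligand genes went different ways. Tgfb2 and Tgfb3 were higher on the stromal arrays, and Tgfb1 was higher on the CD31+ arrays. Of 7 ligand probe sets 4 were called higher on the stromal arrays and 2 higher on the CD31+ arrays. Of all probe sets 17.3% and 12.3% were called in those directions. In bulk samples, fewer cells of a type and less RNA per cell cannot be told apart.

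Tgfb1 encodes the TGF-beta isoform of platelets and blood cells. Its probe set 1420653_at, which the annotation ties to an mRNA reference record, read 5.64, 5.83, 6.03 and 5.84 on stromal 1 to 4, against 8.95, 7.79 and 8.89 on CD31+ 1 to 3. All CD31+ arrays lay above all stromal arrays, and CD31+ 2 was the lowest of the 3. The difference was -2.70 (95% interval -3.38 to -2.03, adjusted p = 2.57e-04), or 6.52-fold higher on the CD31+ arrays. With 1 array left out at a time it stayed between -3.08 and -2.50. With CD31+ 1 alone it was -3.11, and without stromal 4 and CD31+ 2 together it was -3.08. The stromal level of 5.84 ± 0.16 was close to the 40th percentile of the stromal arrays, 5.48 to 5.52. The other probe set, 1445360_at, read 6.82, 6.45, 6.93 and 7.12 on stromal 1 to 4, against 7.43, 7.72 and 8.48 on CD31+ 1 to 3. These groups did not overlap either, but the gap between stromal 4 and CD31+ 1 was smaller than the range within either group. The difference of -1.05 (-1.70 to -0.40, adjusted p = 0.0154) passed the threshold narrowly. It became -0.92 without stromal 2, -0.75 without CD31+ 3, -0.76 with ribosomal centring and -0.60 (adjusted p = 0.235) with the hybridisation control block, none of them a call. It also failed treat, a test against a difference of 1, and the mean of both probe sets differed by -1.88. Which probe set stands for the gene therefore sets the size of its difference. Platelet markers were high on the same 3 arrays, with Pf4 at 8.16 ± 1.80 on the stromal and 14.31 ± 0.04 on the CD31+ arrays and Itga2b at 8.15 ± 1.02 and 14.43 ± 0.08. On stromal 4, where Ppbp was 10.19, the 2 Tgfb1 probe sets read 5.84 and 7.12. The part of platelet or megakaryocyte RNA in the Tgfb1 difference was not tested.

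Tgfb2 encodes an isoform that needs betaglycan for strong binding to the type II receptor. Probe set 1450923_at read 10.13, 10.79, 10.66 and 11.09 on stromal 1 to 4, against 4.85, 5.90 and 5.05 on CD31+ 1 to 3. The groups lay far apart, and the CD31+ mean of 5.27 was below the 40th percentile. The difference was 5.40 (4.67 to 6.13, adjusted p = 8.72e-06), bounded by the low end of the scale. Probe set 1450922_a_at gave 3.25 (7.03 ± 0.22 on the stromal arrays against 3.78 ± 0.15 on the CD31+ arrays, adjusted p = 5.49e-06), with the CD31+ mean again below the 40th percentile. Probe set 1423250_a_at, with both means above the 40th percentile, gave 2.05 or 4.15-fold (8.25 ± 0.33 against 6.20 ± 0.41, adjusted p = 5.35e-04). The fourth, 1438303_at, overlapped between groups at 5.20 to 6.40 on the stromal and 4.40 to 5.42 on the CD31+ arrays. Its difference of 0.82 (0.01 to 1.64, adjusted p = 0.0773) was no call. It became one without stromal 3 (1.03, adjusted p = 0.0450), after the quantile step (1.06), after cyclic loess (1.33) and with the hybridisation control block (1.43).

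Tgfb3 encodes the third isoform, made by many mesenchymal tissues. Its only probe set, 1417455_at, read 10.68, 10.83, 10.42 and 11.71 on stromal 1 to 4, against 4.94, 5.14 and 5.08 on CD31+ 1 to 3. Stromal 4 was the highest array, and all CD31+ arrays were below their 40th percentile. The difference was 5.86 (5.17 to 6.54, adjusted p = 4.20e-06), again bounded by the low end of the scale. It was 5.59 without stromal 4, which was also the stromal array with the highest mean of platelet markers.

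**Figure D2:**
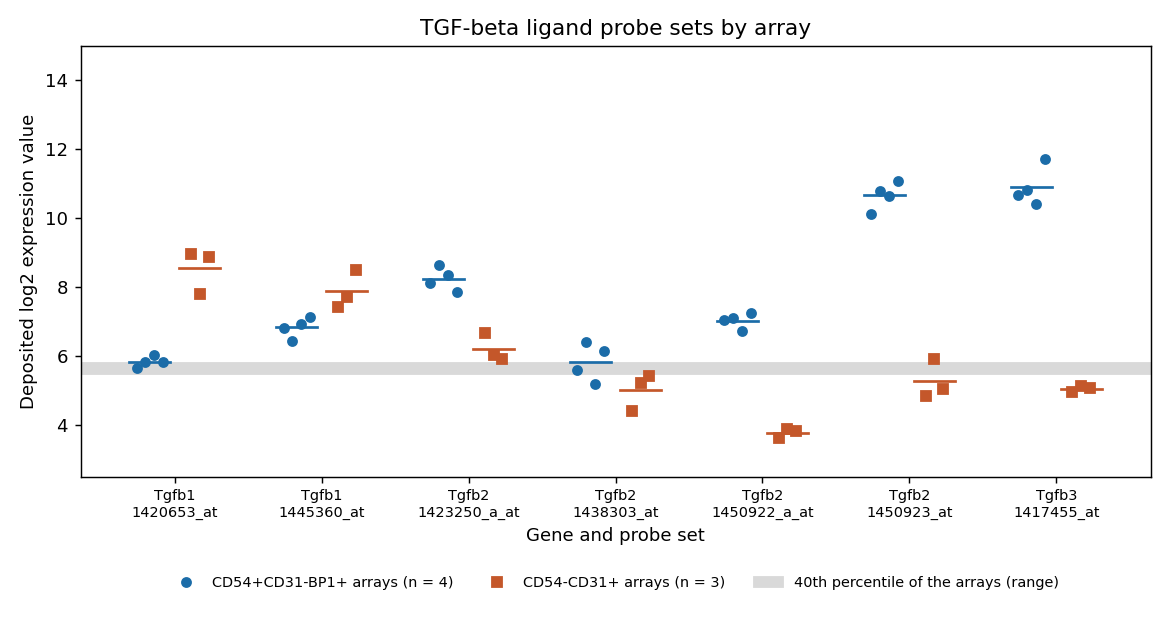
Deposited log2 level (vertical axis) of each ligand probe set on every array, with stromal (CD54+CD31-BP1+) circles left of CD31+ (CD54-CD31+) squares, group means as lines and the range of the arrays' 40th percentiles in grey. Tgfb1 squares lie above the circles, while the CD31+ squares of Tgfb3 and of 3 of the 4 Tgfb2 probe sets average between 3.78 and 5.27, under the grey band.

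Promoters of the 2 ligands with opposite differences are shown because their core sequences differ. They are taken from RefSeq (GRCm38.p6) and run from 250 bases before to 50 bases after the annotated start, which is the first of the last 50 bases. That of Tgfb1 lies at chr7:25686752-25687051 on the plus strand, and that of Tgfb2 at chr1:186705940-186706239 on the minus strand. The capitals mark the GC box (GGGCGG or its reverse complement CCGCCC), the TATA box (TATAAA), the E-box (CACGTG) and the cyclic AMP response element (TGACGTCA), searched on both strands.
Tgfb1: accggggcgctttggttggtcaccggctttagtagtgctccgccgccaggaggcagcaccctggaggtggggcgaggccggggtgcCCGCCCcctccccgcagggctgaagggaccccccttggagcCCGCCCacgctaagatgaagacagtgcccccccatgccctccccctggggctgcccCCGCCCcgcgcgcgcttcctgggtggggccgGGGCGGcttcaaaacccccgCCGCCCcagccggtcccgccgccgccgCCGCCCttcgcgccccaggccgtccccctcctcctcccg
Tgfb2: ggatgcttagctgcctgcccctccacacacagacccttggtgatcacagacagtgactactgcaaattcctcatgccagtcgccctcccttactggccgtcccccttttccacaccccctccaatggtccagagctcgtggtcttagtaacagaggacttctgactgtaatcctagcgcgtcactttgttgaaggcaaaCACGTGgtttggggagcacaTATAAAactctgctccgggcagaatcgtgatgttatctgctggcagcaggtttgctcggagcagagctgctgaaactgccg
The Tgfb1 window holds 6 GC boxes and no TATA box by these letters, with 77% G and C. The Tgfb2 window holds a TATA box whose first base is at -31 and an E-box at -51, no GC box, and 54.3% G and C. Among all 32851 promoters of the table, 35.7% hold a GC box, 13.6% a TATA box and 7.15% this E-box, and the median share of G and C is 52.7%. These matches describe the letters and do not show binding.

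Of 8 receptor probe sets 2 were called by limma, both higher on the stromal arrays, and none was called higher on the CD31+ arrays. That share of 25% is close to the 29.6% of all probe sets, and nothing is read from it for receptors as a group. At an unadjusted p under 0.05, 3 stood above 0 and 2 below, and those 2, both of Tgfbr1, were short of the required difference. In all, 4 had means below the 40th percentile in both populations. Betaglycan and the type II receptor each had a called probe set, and the type I receptor had none.

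Tgfbr3 encodes betaglycan, a co-receptor without kinase activity that presents ligand to the type II receptor. Probe set 1433795_at read 14.17, 13.96, 13.97 and 14.11 on stromal 1 to 4, against 7.04, 7.50 and 9.39 on CD31+ 1 to 3. The stromal values were close to the top of the arrays, 14.68 to 14.82, and CD31+ 3 was the highest of its group. The difference was 6.08 (4.91 to 7.24, adjusted p = 5.76e-05), or 67.5-fold, and it was 6.78 without CD31+ 3. The mean of both Tgfbr3 probe sets differed by 2.87. The second probe set, 1425620_at, read 5.06 to 5.28 on the stromal and 5.21 to 6.05 on the CD31+ arrays. Both means of that probe set were below the 40th percentile, and its difference of -0.33 was no call (adjusted p = 0.229).

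Tgfbr2 encodes the type II kinase that binds the ligand. Probe set 1426397_at read 11.14, 11.29, 11.07 and 11.16 on stromal 1 to 4, against 6.76, 9.56 and 8.55 on CD31+ 1 to 3. The stromal arrays were tightly grouped and all higher, while the CD31+ arrays spread over 2.80. The difference was 2.88 (1.57 to 4.18, adjusted p = 0.00449), or 7.34-fold. It was 2.11 without CD31+ 1, 3.51 without CD31+ 2, and 4.40 (adjusted p = 4.44e-04) with the hybridisation control block, and the test against a difference of 1 narrowly missed (adjusted p = 0.0514). The mean of the 8 reticular stroma markers was 5.46, 6.48 and 6.27 on CD31+ 1 to 3, the same order as Tgfbr2. On the stromal arrays it was 13.24 to 13.42. Among the 8, Pdgfrb varied most on CD31+ 1 to 3, at 2.93, 8.94 and 8.72. Pdgfrb, Lepr and Pdgfra had the order of Tgfbr2, and Cxcl12, Kitl, Ebf3, Foxc1 and Adipoq did not. The part of these markers was not tested. Probe set 1425444_a_at overlapped between groups (7.08 ± 0.21 against 6.91 ± 0.13), with a difference of 0.18 (-0.21 to 0.56, adjusted p = 0.385). The third, 1422019_at, was dim in both populations at 3.76 to 3.93 and 3.87 to 4.52. Averaged over its 3 probe sets the gene differed by 0.88, which was no call.

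Tgfbr1 encodes the type I kinase, also called ALK5. Probe set 1420895_at read 8.82, 8.78, 8.94 and 9.10 on stromal 1 to 4, against 7.50, 9.06 and 7.43 on CD31+ 1 to 3. CD31+ 2 lay within the stromal range and the other CD31+ arrays below it. The difference was 0.91 (0.02 to 1.80, adjusted p = 0.0732). Without CD31+ 2 it was 1.44 and called (adjusted p = 5.63e-04). It was also called with ribosomal centring (1.20), without stromal 4 and CD31+ 2 together (1.38) and on the 5 arrays of like hybridisation control level (1.41). With the hybridisation control as a block the same 1.41 was no call (adjusted p = 0.0861), and the mean of the 3 Tgfbr1 probe sets turned to -0.10. CD31+ 2 was also the array with the highest mean of B-lineage markers, 9.63 against 7.59 and 7.50 on CD31+ 1 and 3. It was highest as well in the means of the leukocyte, neutrophil and monocyte lists. Its 3' minus 5' differences were 3.50 for Gapdh and 1.49 for Actb, within the stromal ranges of 3.07 to 3.51 and 1.30 to 1.79, against 2.54 and 2.37 for Gapdh and 0.65 and 0.96 for Actb on CD31+ 1 and 3. The part of these measures was not tested. The other Tgfbr1 probe sets, 1420893_a_at and 1420894_at, averaged 4.64 and 3.38 on the stromal arrays and 5.40 and 3.85 on the CD31+ arrays, all below the 40th percentile. Their differences of -0.76 and -0.47 were no calls.

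**Figure D3:**
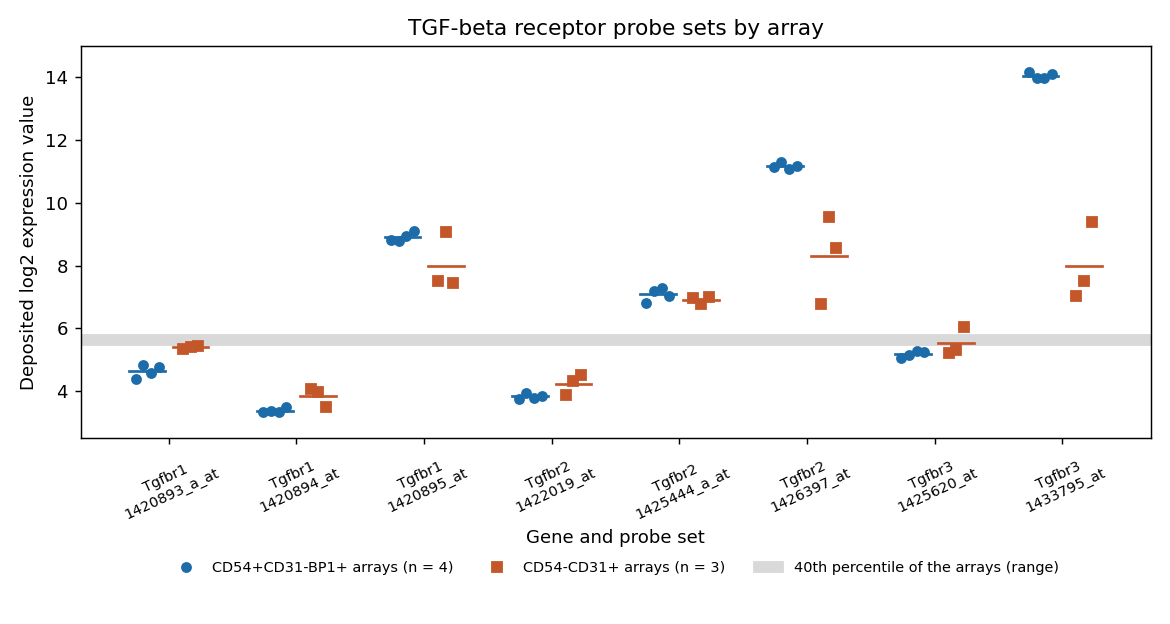
Deposited log2 level (vertical axis) of each receptor probe set on every array, with stromal (CD54+CD31-BP1+) circles left of CD31+ (CD54-CD31+) squares, group means as lines and the range of the arrays' 40th percentiles in grey. In Tgfbr3 1433795_at and Tgfbr2 1426397_at all circles lie above all squares, and in Tgfbr1 1420895_at 1 square, CD31+ 2, lies at the level of the circles.

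The latency proteins split between the populations like the ligands. All 4 probe sets of Ltbp3 and the probe set of Ltbp2 were called higher on the stromal arrays. All 3 probe sets of Ltbp1 were called higher on the CD31+ arrays, and Ltbp4 was called neither way. Of these 9 probe sets 8 were called, against 29.6% of all probe sets. Groups did not overlap in any of the 9, and they did not overlap in 60.7% of all probe sets.

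Ltbp1 encodes the first described of these tethers, which binds the latent complexes of the TGF-beta isoforms. Probe set 1448870_at read 9.41, 9.36, 9.22 and 9.71 on stromal 1 to 4, against 11.12, 10.36 and 10.92 on CD31+ 1 to 3. The transcript was thus well above the 40th percentile in both populations. The difference was -1.38 (-1.89 to -0.86, adjusted p = 0.00194), or 2.60-fold higher on the CD31+ arrays. With ribosomal centring it was -1.09 and no call (adjusted p = 0.0717), though adjusted p in that setting mostly followed the size of the difference. The test against a difference of 1 gave no call either (adjusted p = 0.379). Probe set 1447547_at read 6.87, 6.96, 7.36 and 7.30 on stromal 1 to 4, against 9.95, 9.02 and 10.65 on CD31+ 1 to 3. CD31+ 2 was the lowest of its group in both of these probe sets. The difference was -2.75 (-3.58 to -1.92, adjusted p = 7.01e-04), or 6.73-fold. Probe set 1419786_at read 5.79 to 5.91 on the stromal arrays, close to the 40th percentile, and 8.52, 8.71 and 7.59 on CD31+ 1 to 3. Here CD31+ 3 was the lowest, and the difference was -2.43 (-3.04 to -1.82, adjusted p = 2.65e-04). These 2 calls held in all 21 alternative settings in which the probe sets were fitted. As for Tgfb1, the platelet and leukocyte markers were high on the same 3 arrays, and their part was not tested.

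Ltbp2 encodes a matrix protein of elastic fibres that, unlike its relatives, does not bind latent TGF-beta. Its probe set 1418061_at read 13.71, 13.49, 13.39 and 13.63 on stromal 1 to 4, against 10.02, 9.91 and 10.05 on CD31+ 1 to 3. Both groups were tight and both were bright. The difference was 3.56 (3.22 to 3.90, adjusted p = 1.55e-06), or 11.8-fold, and it stayed between 3.38 and 3.84 under the 22 alternatives run.

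Ltbp3 encodes a tether that binds latent TGF-beta and is needed for normal bone growth. Probe set 1438312_s_at read 12.25, 12.25, 12.19 and 12.23 on stromal 1 to 4, against 7.19, 8.12 and 6.42 on CD31+ 1 to 3. The difference was 4.99 (4.17 to 5.81, adjusted p = 2.57e-05), or 31.7-fold. Its suffix marks probes that can match other transcripts, as does that of 1456189_x_at, which gave 2.47 (7.24 ± 0.71 against 4.77 ± 0.38, adjusted p = 0.00172). The probe sets without such a suffix went the same way. Probe set 1418049_at read 10.52, 10.61, 10.20 and 10.64 on stromal 1 to 4, against 6.07, 5.91 and 5.78 on CD31+ 1 to 3, a difference of 4.57 or 23.8-fold (4.19 to 4.96, adjusted p = 9.16e-07). Probe set 1437833_at gave 3.89 (7.55 ± 0.74 against 3.65 ± 0.12, adjusted p = 1.34e-04). In both 1437833_at and 1456189_x_at the CD31+ mean was below the 40th percentile, so the low end of the scale bounds these differences too. The CD31+ values of 1418049_at were close to the 40th percentile of the CD31+ arrays, 5.68 to 5.79, and CD31+ 3 lay below its own. On stromal 2 both 1437833_at and 1456189_x_at were the lowest of their group, at 6.48 and 6.26 against 7.67 to 8.15 and 7.18 to 7.80 on the other stromal arrays.

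Ltbp4 encodes a tether of TGF-beta 1 that also takes part in elastic fibre assembly. Its probe set 1436665_a_at read 5.60, 5.89, 5.77 and 5.61 on stromal 1 to 4, against 6.52, 6.21 and 6.70 on CD31+ 1 to 3. The groups did not overlap, but the difference of -0.76 (-1.16 to -0.36, adjusted p = 0.00801) did not reach the required size. Relative to the median probe set it was -0.45, and after cyclic loess it was -0.40.

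**Figure D4:**
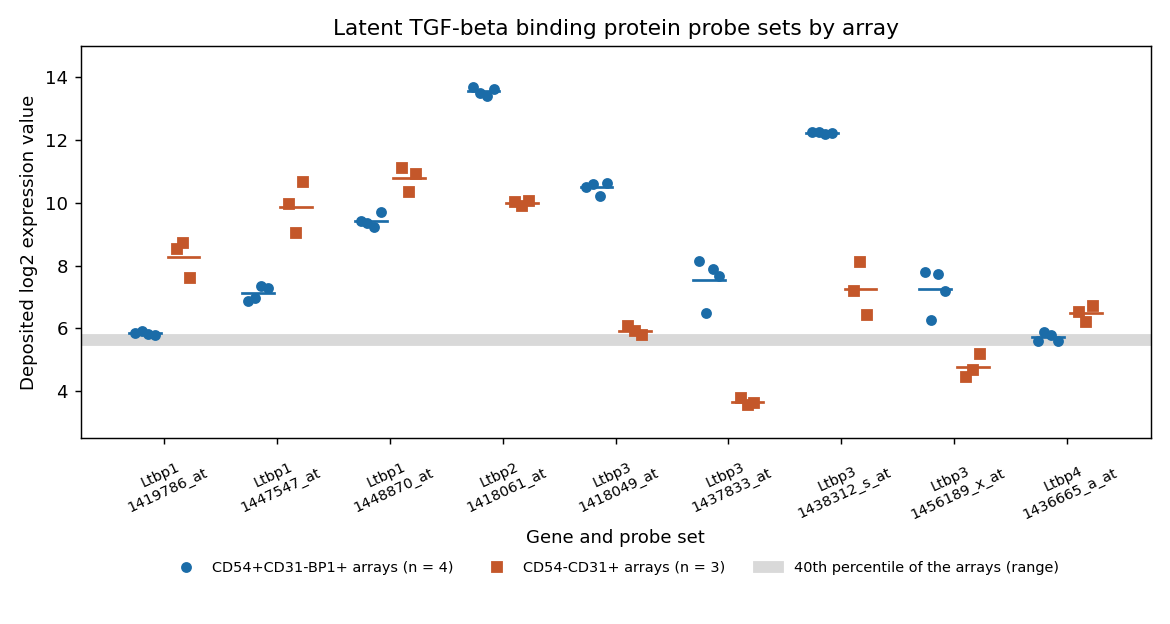
Deposited log2 level (vertical axis) of each latent TGF-beta binding protein probe set on every array, with stromal (CD54+CD31-BP1+) circles left of CD31+ (CD54-CD31+) squares, group means as lines and the range of the arrays' 40th percentiles in grey. The squares lie above the circles in all 3 Ltbp1 probe sets and in Ltbp4, and below them in Ltbp2 and in all 4 Ltbp3 probe sets.

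The promoters of Ltbp1 and Ltbp2, again with opposite differences, are shown with the same windows and capitals. That of Ltbp1 belongs to the upstream of its 2 annotated starts and lies at chr17:75005279-75005578 on the plus strand. That of Ltbp2 lies at chr12:84876442-84876741 on the minus strand.
Ltbp1: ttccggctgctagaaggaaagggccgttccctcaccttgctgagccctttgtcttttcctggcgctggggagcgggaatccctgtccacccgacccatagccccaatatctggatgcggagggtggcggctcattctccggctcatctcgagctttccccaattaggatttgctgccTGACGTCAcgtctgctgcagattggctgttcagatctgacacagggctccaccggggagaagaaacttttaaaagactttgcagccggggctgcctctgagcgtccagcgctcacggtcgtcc
Ltbp2: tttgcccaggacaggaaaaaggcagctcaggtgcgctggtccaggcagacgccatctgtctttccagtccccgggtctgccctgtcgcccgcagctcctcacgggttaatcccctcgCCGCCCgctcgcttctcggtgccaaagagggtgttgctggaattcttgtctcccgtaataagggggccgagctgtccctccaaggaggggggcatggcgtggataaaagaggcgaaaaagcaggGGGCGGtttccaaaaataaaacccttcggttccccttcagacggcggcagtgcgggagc
The printed Ltbp1 window holds a full cyclic AMP response element at -73, found in 1.79% of all promoters, and no GC box. The window of the other Ltbp1 start holds neither, and which start is used was not tested. The Ltbp2 window holds 2 GC boxes, at -133 and -9. A short Smad element (CAGAC, on either strand) occurs 1 time in the printed Ltbp1 window and 3 times in that of Ltbp2. It occurs 2 times in that of Tgfb2 and not in that of Tgfb1, and 49.6% of all promoters hold it. Promoters were found for 8 of the 10 genes, not for Tgfb3 and Tgfbr3.

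Probe sets of the same gene could give very different values. Of the 7 member genes with several probe sets, 0 had calls in both directions and 3 (Tgfb2, Tgfbr2 and Tgfbr3) were called in only some of their probe sets. Among all 9010 genes with several probe sets, 177 had calls in both directions and 4126 were called only in part. The range was widest for Tgfbr3, from -0.33 to 6.08, and for Tgfb2, from 0.82 to 5.40. On the control transcript of Actb, 3' minus 5' probe sets differed by 1.30 to 1.79 on the stromal and 0.65 to 1.49 on the CD31+ arrays, and the part of such length differences here was not tested. With 1 probe set per gene, the one of highest mean, 6 of the 10 genes were called higher on the stromal arrays (Tgfb2, Tgfb3, Tgfbr2, Tgfbr3, Ltbp2 and Ltbp3) and 2 on the CD31+ arrays (Tgfb1 and Ltbp1). Of 18193 genes treated this way 38.4% were called.

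Other genes of the pathway were counted in 4 lists, with 1 probe set per gene. Of 64 genes 61 were on the array under a single symbol, 31 were called higher on the stromal arrays and 4 higher on the CD31+ arrays. Over all genes 23.6% and 14.8% were called in those directions. The median difference was 1.25 for the 61 genes and -0.27 for all genes.

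Genes that release or store latent TGF-beta went both ways, with 7 of 17 called higher on the stromal arrays, 4 on the CD31+ arrays and a median of -0.12. At an unadjusted p under 0.05 limma placed 7 above 0 and 7 below. Higher on the stromal arrays were the matrix metalloprotease genes Mmp14 by 5.42 (adjusted p = 1.09e-06) and Mmp2 by 5.06, the procollagen protease gene Bmp1 by 3.49 and the microfibril gene Fbn2 by 3.43. Averaged over its probe sets Bmp1 differed by 0.85 and was no call. Itgav, the alpha chain of the integrins that bind latent TGF-beta, chosen after its value was seen, was higher by 1.90, and by 0.58 and no call in the mean of its probe sets. Among its partner beta chains, Itgb3 and Itgb5 were higher on the CD31+ arrays, at differences of -3.72 and -2.30. Itgb3, also the beta chain of the platelet fibrinogen receptor, read 9.91, 10.81, 10.52 and 11.34 on stromal 1 to 4, against 14.31, 14.41 and 14.39 on CD31+ 1 to 3. Thbs1, which encodes an activator of latent TGF-beta stored in platelets, stood at -3.37 (adjusted p = 6.07e-04). Nrros, which encodes a cell-surface tether of latent TGF-beta on myeloid cells, stood at -3.53 (7.39 ± 0.56 against 10.92 ± 0.56, adjusted p = 2.00e-04). The platelet and leukocyte markers were high on the same 3 arrays as these 4 genes, and their part was not tested. Fbn1 and Lrrc32 had no probe set under a single symbol and are not analysed here.

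Of 20 co-receptors and inhibitors 12 were called higher on the stromal arrays and 0 higher on the CD31+ arrays, with a median of 1.88. By limma at an unadjusted p under 0.05, 14 stood above 0 and 4 below. Those 4, chosen after their values were seen, were Fstl3, Ppm1a, Fkbp1a and Cd109, at -0.82 to -0.51 and so short of the required difference. The largest called differences were those of Vasn, which encodes a TGF-beta binding membrane protein, at 6.41, the proteoglycan genes Dcn and Bgn at 6.09 and 5.74, and the activin antagonist gene Fst at 5.86. CD31+ 2 was the highest CD31+ array for Vasn, at 8.02 against 4.38 and 5.07, and without it the difference was 7.51. The same array was highest for Dcn, and without it that difference was 6.74. The TGF-beta induced inhibitors Smad7, Pmepa1 and Skil, chosen after their values were seen, were higher by 2.60, 4.59 and 2.03. Pmepa1 read 8.18 on CD31+ 2 against 5.82 and 5.70 on CD31+ 1 and 3, and its difference was 5.39 without CD31+ 2. Smad7 read 9.99, 10.51, 10.28 and 9.98 on stromal 1 to 4, against 7.67, 8.01 and 7.10 on CD31+ 1 to 3, with no overlap (adjusted p = 1.30e-04). In the mean of its probe sets Skil differed by 0.70 and was no call. Eng, the co-receptor endoglin of endothelial cells, also chosen after its value was seen, stood at 0.93 (8.43 ± 0.18 on the stromal against 7.49 ± 0.05 on the CD31+ arrays, adjusted p = 0.00213). That was short of the required difference, which it reached without stromal 1 (1.01), with ribosomal centring (1.22) and in the mean of its probe sets (1.06).

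Of 8 Smad transducers 4 were called higher on the stromal arrays and 0 higher on the CD31+ arrays, with a median of 1.86. At an unadjusted p under 0.05 limma placed 6 above 0 and 1 below, which was Smad9 at -0.83, also chosen after its value was seen. Smad4, the shared partner of the receptor-activated Smads, was higher by 2.87 (adjusted p = 1.35e-04), Smad5 of the BMP branch by 2.12 and Zfyve9, which encodes the anchor of Smad2 and Smad3, by 1.63. Smad2 read 9.41, 9.47, 9.28 and 10.03 on stromal 1 to 4, against 6.75, 9.54 and 6.06 on CD31+ 1 to 3, so CD31+ 2 lay among the stromal arrays. Its call at 2.10 (adjusted p = 0.0420) was lost without any 1 stromal array, without CD31+ 1 or without CD31+ 3 (adjusted p from 0.0709 to 0.133), with the replicate number as a block (adjusted p = 0.0707) and with the hybridisation control block (2.80, adjusted p = 0.0969). It was lost too after the quantile step (1.79) and after cyclic loess (1.44). Without CD31+ 2 it was 3.14. Smad3, chosen after its value was seen, stood at 0.85 (adjusted p = 0.0366), short of the required difference, and at 1.14 and called without CD31+ 2. In the mean of its probe sets it turned to -0.19. It was called with the hybridisation control block and on the 5 arrays of like level (1.42).

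Of 16 genes on the array listed here as targets of TGF-beta, 8 were called higher on the stromal arrays and 0 higher on the CD31+ arrays, with a median of 1.28. At an unadjusted p under 0.05 limma placed 9 above 0 and 1 below, which was Tsc22d1 at -0.61, also chosen after its value was seen. Ctgf (Ccn2), a matricellular growth factor gene, read 13.32, 13.98, 13.71 and 13.75 on stromal 1 to 4, against 6.36, 4.69 and 5.21 on CD31+ 1 to 3. Its difference was 8.27 (adjusted p = 2.60e-06), with the CD31+ mean below the 40th percentile. The related gene Cyr61 (Ccn1) was higher by 7.05, Id3, which BMPs induce, by 6.04, and the collagen gene Col1a1 by 4.03. Cyr61 read 8.27 on CD31+ 2 against 4.28 and 4.97 on CD31+ 1 and 3, and Id3 was also highest there among the CD31+ arrays. Without CD31+ 2 the differences were 8.27 for Cyr61 (Ccn1) and 6.68 for Id3. Many of these are also genes of mesenchymal cells in general, and their differences were not tested as a response to TGF-beta.

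**Figure D5:**
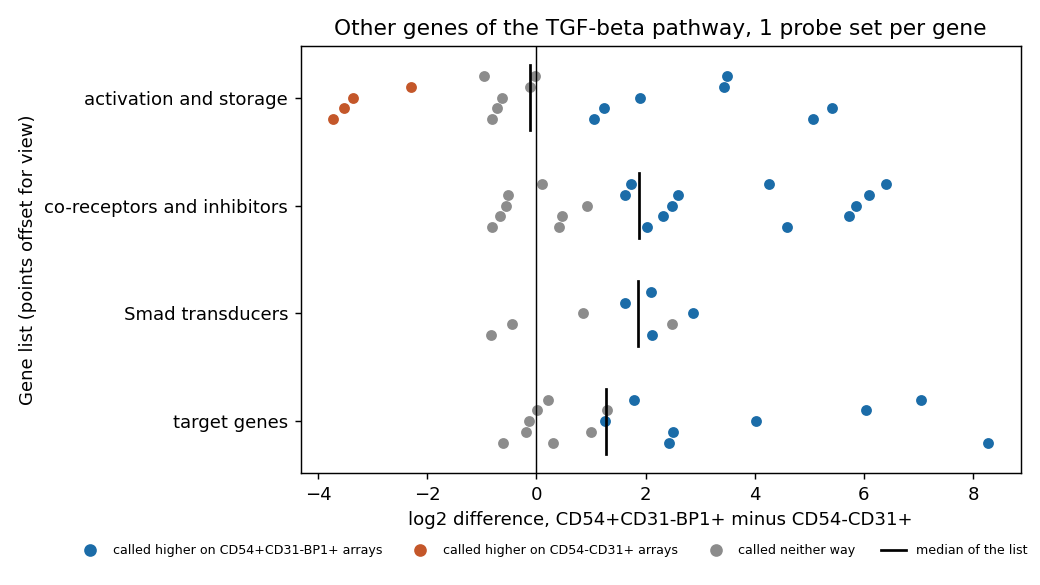
Log2 difference, stromal (CD54+CD31-BP1+) minus CD31+ (CD54-CD31+), of 61 other genes of the pathway in 4 lists, 1 probe set per gene, with the median of each list as a black line. Calls toward the CD31+ arrays appear only in the list of activation and storage genes, where 4 genes lie between -3.72 and -2.30.

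The genes whose pattern over the 7 arrays was most like that of a member were found after centring each probe set on its own mean. The measure was the root mean square log2 difference, and it rests mostly on the step between the populations. Nearest to Tgfb2 were Arhgap5 (0.21) and Il7 (0.22), with 93 genes within 0.5. Nearest to Tgfb3 were Sspn (0.24) and Angptl1 (0.25), with 81 within 0.5. Tgfbr3 had the fewest genes within 0.5, 13, led by Hoxa9 (0.25) and Cd302 (0.36). Tgfbr2 was followed by Ehd2 (0.22) and Sh3bp5 (0.23), with 63 within 0.5, and Ltbp3 by Esr1 and Rcn3 (both 0.23), with 75. Ltbp2 was followed by Pcsk5 (0.11) and Thbs3 (0.12), but had 481 genes within 0.5. The small differences of Tgfb1 1445360_at, Tgfbr1, Ltbp1 1448870_at and Ltbp4 had 1570 to 7364 genes within 0.5, so their nearest genes say little and are not named.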

How the data were processed

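The authors deposited log2 expression values made with Affymetrix Expression Console 1.1 and RMA, per the submitters' processing notes. RMA corrects background, normalizes by quantiles and summarises probe sets. Which arrays were normalized together, and the build behind the probes, are not given in the sources used here. The table holds 45101 probe sets, 64 of them controls, and the 7 columns were used as deposited. No depth applies to arrays, and their number limits the precision. A 2016 platform annotation gave 1 symbol to 34945 probe sets, several to 932 and none to 9160, and those with several were not named.

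Differences were fitted without covariates in limma 3.58.1 (lmFit, eBayes; R 4.3.3) on all 45037 other probe sets without a filter on low values, and adjusted by Benjamini-Hochberg. No fold is given where a group mean lay below its arrays' 40th percentile. An exact permutation test of 4 against 3 arrays could not go below a two-sided p of 0.0571 and was not used. Named genes were all member probe sets, up to 4 called genes per pathway list and direction, the sorting antigens and markers, and the nearest genes by pattern. Genes named outside this rule are given as chosen after their values were seen. Members, lists and alternatives were chosen with earlier results of these data known. The fit was tested on simulated data. Alternatives were 2 filters on low values, 3 rescalings, other variance models, probe set choices, call rules, blocks and left-out arrays.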

Additional observations from a re-analysis of the deposited data

Results flagged for a closer look

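Among the 4 stromal arrays, 3 probe sets had an array far from the others by Dixon's criterion, of 60 tested, and chance gives about 1 in 20. For Tgfbr1 probe set 1420894_at this was stromal 4, at 3.51 against 3.33 to 3.36 on the others, all below the 40th percentile. For Icam1 it was stromal 4, at 11.02 against 10.31 to 10.35. For Ppbp it was again stromal 4, at 10.19 against 3.75 to 4.30. The CD31+ group, with 3 arrays, was not tested.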

How the results depend on the processing

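Over 512 values of the 24 member probe sets under the alternatives, 488 kept direction and side of the threshold, 10 lost a call, 10 gained one and 4 turned sign. None of the 4 was a call as deposited or in the setting where it turned. Tgfbr1 1420895_at turned to -0.10 in the mean of the gene's probe sets, though it was called without CD31+ 2 and with ribosomal centring. Tgfbr2 1422019_at turned to 0.0195 and Tgfbr3 1425620_at to 0.19 after cyclic loess, and Tgfbr2 1425444_a_at to -0.12 after the second quantile normalization. Among named pathway genes Smad3 turned to -0.19 in the mean of its probe sets. The member counts of 11 and 5 became 6 and 2 with 1 probe set per gene, where 10 features in place of 24 were counted, and 5 and 2 with probe sets averaged per gene, where Tgfbr2 fell short at 0.88. The 5 calls toward the CD31+ arrays became 3 with ribosomal centring and 3 with treat, a test against a log2 difference of 1. Calls gained or lost with ribosomal centring say little about a probe set's own spread, since adjusted p there mostly followed the difference's size. Leaving out 1 array at a time gave 11 to 12 and 4 to 5 member calls. Across all probe sets 7796 calls went toward the stromal and 5520 toward the CD31+ arrays. They became 4349 and 2717 with 1 probe set per gene, 3426 and 2369 with means and 3379 and 1449 with treat. The CD31+ count alone became 3153 with the 60th percentile filter, 2462 with ribosomal centring and 16034 with adjusted p alone. The 4 pathway genes toward the CD31+ arrays became 12 with adjusted p alone and 7 without CD31+ 2 and 3 (the arrays with high hybridisation controls). Where CD31+ 1 stands alone, it is assumed to vary like the other arrays.

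With the replicate number as a block, 11 and 5 member probe sets were called, and 7165 and 5333 over the table. Deviations of same-numbered arrays correlated at -0.11, -0.01 and 0.10, and those of other pairs at -0.09 to 0.12. So few values cannot show whether same-numbered arrays share a mouse or a sort, and the block is not read as a pairing.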
